A study of Mus musculus with 6 samples.

Results

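The enzymes and subunits that write, read and erase histone methylation were followed as a group of 38 genes. The rule took 20 named Polycomb, H3K9 and H3K4 methyltransferase genes and every gene whose symbol is Kdm followed by a digit, and each gene was represented by its brightest probe set, averaged over all 6 arrays. Of the 38, 37 had a named probe set, out of 18193 genes on the array. Suv39h1, an H3K9 methyltransferase, was not analysed here. The members comprised 4 core subunits of Polycomb repressive complex 2 (PRC2), 3 PRC2 accessory proteins, 6 subunits of Polycomb repressive complex 1 (PRC1), 4 H3K9 methyltransferases, 2 core subunits of the H3K4 methyltransferase complexes and 18 histone demethylases.

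RNA came from E14Tg2a cells, an established feeder-independent mouse embryonic stem (ES) cell line. The medium of all groups was N2B27, which contains no serum, supplemented with 1000 U/ml LIF and 20 ng/ml BMP4, cytokines that hold mouse ES cells undifferentiated. One group received SB431542, an inhibitor of the activin and TGF-beta type I receptors, at 5 µM for 24 h. A second group received the ligand activin at 10 ng/ml for 2 h, and the control group received neither. Each group had 2 arrays. The labels name no vehicle for the control cells. They also leave unsaid whether arrays of 1 group represent different cultures, and p-values then measure array-to-array spread that may be purely technical. Duration and agent differ together between the treated groups, so their effects cannot be told apart in the comparison of activin with SB431542.

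PRC2 places methyl groups on H3K27 through either of its alternative catalytic subunits, Ezh1 or Ezh2, while PRC1 ubiquitinates histone H2A through Rnf2 or Ring1. In mouse ES cells both complexes sit at genes of later development and hold them at low expression. Methylation of H3K9 marks heterochromatin and silenced repeats, methylation of H3K4 marks active promoters, and the Kdm enzymes remove methyl groups from these and other lysines.

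The RNAs of nearly all members were readily measured. On all 6 arrays 35 of the 37 members lay above 5.09 on the log2 intensity scale, the highest value of 27 probe sets for bacterial genes that were not added to the samples, which ranged from 3.00 and had a median of 3.52. Mean levels of these 35 lay between 6.68 and 12.55. Kdm4d and Kdm5d, the demethylases under the background limit on all 6 arrays, had means of 3.92 and 3.87, so their differences are not read as differences in RNA, and counts of direction are given without them as well. Among the ES cell markers Pou5f1, the pluripotency factor Oct4, had log2 intensities of 12.00 and 12.14 in SB431542 cells, 12.46 and 12.45 in activin cells, and 12.57 and 12.41 in control cells, all above background.

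Members varied little over the 6 arrays. The difference between the highest and the lowest array had a median of 0.33 log2 units over the 37 members and of 0.53 over all 18193 genes. Dim probe sets vary more, and over the 9009 genes at or above the lowest level of the measured members, 6.68, the median was 0.36. This range was under 0.5 in 32 of 37 members, which is 86.5%, against 46.3% of all genes and 73.0% of the brighter ones. Ash2l, a scaffold shared by the H3K4 methyltransferases, had the narrowest range of 0.07. Its values were 12.30 and 12.28 in SB431542 cells, 12.24 and 12.25 in activin cells, and 12.26 and 12.27 in control cells. Ring1 had the widest range of 0.70. The array medians ran from 37 to 49 in intensity, and activin replicate 2, with the highest median, also gave the highest value of Phf19 (7.13) and of Kdm4b (7.48). The part of the array in these 2 values was not tested.

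**Figure D1:**
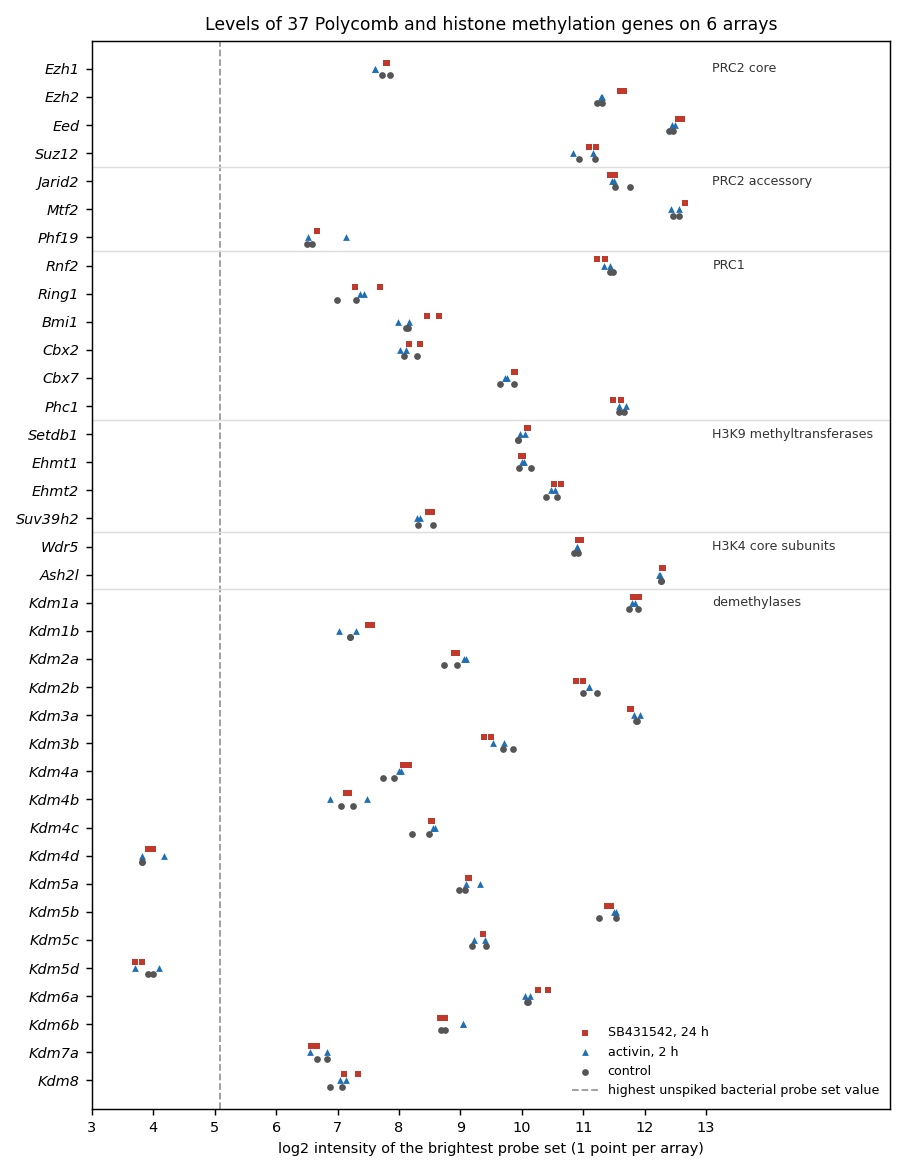
Log2 intensity of the brightest probe set of each of the 37 members, 1 point per array, with SB431542 in squares, activin in triangles and control in circles; the dashed line at 5.09 is the highest value of the unspiked bacterial probe sets. The points of a gene lie close together in most rows, and Kdm4d and Kdm5d lie left of the line.

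Inhibition of the activin receptors for 24 h left no member past an adjusted p of 0.05 in limma at its default settings. The count was 0 of 37, against 7 of 45037 probe sets (0.0155%), and the smallest limma adjusted p of a member was 0.321. At an unadjusted p under 0.05 there were 2 members by default, Ezh2 and Bmi1 (5.41%, against 13.0% of all probe sets), and 7 with the intensity trend described next (18.9%, against 16.6%). The 95% confidence intervals of the brightest probe sets, not adjusted for the number of genes, lay within 2-fold in either direction for 37 of 37 members. Within 1.5-fold there were 28, and the outermost bounds were -0.67 and 0.82 on the log2 scale. Other probe sets can lie outside, as did a dimmer one of Bmi1 at 1.14 (95% interval 0.75 to 1.53). With a prior variance that follows the intensity together with robust estimation, called the intensity trend from here on, 1 of 37 members passed (2.70%), against 4.98% of all probe sets and 6.48% of genes taken by their brightest probe set.

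Most differences by the brightest probe sets were small and more were above 0 than below. Other probe sets above background did not always share the sign. It was opposite in 4 of 4 for Kdm5c and 3 of 4 for Rnf2, and the same in 5 of 5 for Suz12. The member median was 0.07 in SB431542 minus control, with 27 members above 0 and 10 below (26 and 9 of the 35 above background), and the median over all genes was -0.00, with 49.3% above 0. The member median was 0.0157 with repeated quantile normalization, 0.0325 with probe sets averaged, and 0.0383 to 0.105 with each array left out. Sizes without regard to sign had a median of 0.12 over the members and 0.19 over all genes. Both SB431542 arrays lay above both control arrays in 15 members (40.5%, against 23.9% of genes) and below both in 6 (16.2%, against 22.4%), or in 14 and 5 of the 35 above background. The medians by role were 0.12 for the PRC2 core with 4 of 4 above 0, 0.12 for the PRC2 accessory proteins with 2 of 3, and 0.10 for PRC1 with 4 of 6. They were 0.08 for the H3K9 methyltransferases with 3 of 4, 0.04 for the H3K4 core subunits with 2 of 2, and 0.05 for the 18 demethylases with 12, the 2 at background included.

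Ezh2, the main H3K27 methyltransferase of dividing cells, was the member that passed with the intensity trend. Its log2 intensities were 11.66 and 11.60 in SB431542 cells, 11.30 and 11.29 in activin cells, and 11.30 and 11.22 in control cells. Both SB431542 arrays stood above the other 4. The difference SB431542 minus control was 0.37 ± 0.12 (SE; 95% interval 0.08 to 0.66), a 1.29-fold higher level, with a limma adjusted p of 0.321 by default and 0.0032 with the intensity trend. Without SB431542 replicate 1 the trend's adjusted p was 0.134, and it was 0.00216 to 0.0307 without each of the other arrays. Ezh1, the alternative subunit found mainly in resting cells, had 7.81 and 7.79 in SB431542 cells, 7.61 in each activin array, and 7.72 and 7.86 in control cells. Its difference from control of 0.01 ± 0.12 (SE) in SB431542 cells was below 0 under other scalings. Eed, the subunit that binds the finished H3K27 mark, differed by 0.15, and the scaffold Suz12 by 0.08.

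Among the PRC2 accessory proteins, Jarid2, which helps to bring PRC2 to its targets in ES cells, differed from control by -0.17 in SB431542 cells. The Polycomb-like proteins Mtf2 and Phf19 differed by 0.15 and 0.12, while 2 of the 4 other Mtf2 probe sets above background had the opposite sign. None of these passed by either setting, and the lowest trend adjusted p among them was 0.29.

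The promoters of Ezh2 and Suz12 share a match to an E2F site, and Bmi1 is shown with them. Each of these 3 genes has a probe set that passed with the intensity trend. Rnf2 and Kdm6a also have such a probe set, but their promoters are not printed. Sequences are from RefSeq (GRCm38.p6), 250 bases before to 50 after the start of the gene, 5′ to 3′ on the strand of the gene. Capitals mark matches on either strand to the E2F motifs TTTGGCGC and TTTCCCGC, the E-box CACGTG and the Smad box CAGAC; the motifs were chosen after the values were seen.
Ezh2, chr6:47594981-47595280, minus strand: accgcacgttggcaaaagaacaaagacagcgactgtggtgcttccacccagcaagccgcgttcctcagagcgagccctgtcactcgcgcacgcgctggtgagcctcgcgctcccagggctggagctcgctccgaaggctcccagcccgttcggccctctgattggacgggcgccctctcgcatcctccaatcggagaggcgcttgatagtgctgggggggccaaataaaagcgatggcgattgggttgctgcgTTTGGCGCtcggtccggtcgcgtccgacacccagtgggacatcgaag
Suz12, chr11:79992856-79993155, plus strand: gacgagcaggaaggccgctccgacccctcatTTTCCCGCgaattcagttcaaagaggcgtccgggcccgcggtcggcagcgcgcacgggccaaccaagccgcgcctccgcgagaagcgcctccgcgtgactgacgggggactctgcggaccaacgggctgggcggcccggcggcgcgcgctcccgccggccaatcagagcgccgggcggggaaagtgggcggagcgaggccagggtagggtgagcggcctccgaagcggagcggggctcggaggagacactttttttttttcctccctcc
Bmi1, chr2:18676768-18677067, plus strand: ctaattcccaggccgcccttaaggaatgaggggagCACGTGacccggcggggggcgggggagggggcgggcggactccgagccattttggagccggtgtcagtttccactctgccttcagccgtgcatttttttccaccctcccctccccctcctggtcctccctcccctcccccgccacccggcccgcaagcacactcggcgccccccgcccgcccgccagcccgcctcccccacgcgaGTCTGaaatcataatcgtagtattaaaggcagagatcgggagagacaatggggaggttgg

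Of the 37 members 30 matched an entry, with 39 promoters among them. Kdm2a, Kdm3b, Kdm4b, Kdm5a, Kdm6b, Cbx2 and Ash2l had none. An E2F motif was found in 3 of the 39 (7.69%: Ezh2, Phf19 and Suz12), against 1.56% of 32851 promoters. The E-box was found in 12.8% of the member promoters and 7.15% of all, and the Smad box, a short motif bound by the transducers of activin signals, in 41.0% and 49.6%. Rnf2 and Kdm6a were among the genes with a Smad box, and Kdm6a was among those with an E-box. The printed windows hold 31 CpG dinucleotides in Ezh2, 41 in Suz12 and 23 in Bmi1, with a median of 24 in the member promoters and 7 in all promoters. The E2F motifs and the E-box contain a CpG, while the Smad box does not. The part of CpG content in these shares was not tested. A match of letters does not show that a factor binds there.

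Bmi1, a PRC1 subunit that partners the RING proteins, had the largest difference of the members between SB431542 and control cells. Its brightest probe set had log2 intensities of 8.65 and 8.46 in SB431542 cells, 8.16 and 7.98 in activin cells, and 8.15 and 8.11 in control cells. The SB431542 values did not overlap those of the other groups. The difference from control was 0.42 ± 0.14 (SE; 95% interval 0.08 to 0.77), with a limma adjusted p of 0.33 by default and 0.0802 with the intensity trend. A second, dimmer Bmi1 probe set had 6.93 and 6.81 in SB431542 cells, 6.02 and 6.34 in activin cells, and 5.78 and 5.67 in control cells. It differed from control by 1.14 ± 0.16 (SE), with a limma adjusted p of 0.162 by default and 0.00474 with the intensity trend. That call was lost without SB431542 replicate 1 (adjusted p 0.133) or replicate 2 (0.0537).

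Other PRC1 subunits gave smaller differences, or probe sets that disagreed. Ring1, a catalytic RING subunit, had 7.69 and 7.28 in SB431542 cells, 7.36 and 7.43 in activin cells, and 7.29 and 6.99 in control cells. The SB431542 and control values overlapped, and the difference of 0.34 had a limma adjusted p of 0.511. Rnf2, the main H2A ubiquitin ligase in ES cells, had 11.23 and 11.35 in SB431542 cells, 11.43 and 11.33 in activin cells, and 11.49 and 11.44 in control cells by its brightest probe set, a difference of -0.18 from control. A second Rnf2 probe set gave the opposite sign. It had 11.52 and 11.39 in SB431542 cells, 11.33 and 11.39 in activin cells, and 11.15 and 11.19 in control cells, a difference of 0.29 with a limma adjusted p of 0.408 by default and 0.0345 with the intensity trend. The direction of Rnf2 RNA is therefore not settled by these probe sets. The chromodomain proteins Cbx2 and Cbx7, which bind methylated H3K27, differed by 0.07 and 0.13, and Phc1, a polymerising subunit, by -0.07.

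Over all 106 probe sets of the members, 5 passed as higher in SB431542 cells with the intensity trend (4.72%, against 3.38% of all probe sets), 0 passed as lower (against 1.60%), and 0 passed by default. They were those of Ezh2, Bmi1 and Rnf2 given above, 1 of Suz12 and 1 of Kdm6a. The Suz12 probe set had 6.61 and 6.82 in SB431542 cells, 6.51 and 6.49 in activin cells, and 5.64 and 5.95 in control cells, a difference of 0.92 with a trend adjusted p of 0.0252. Here the activin arrays also lay above the control arrays, and the brightest Suz12 probe set differed by 0.08. The Kdm6a probe set had 10.09 and 10.15 in SB431542 cells, 10.02 and 10.00 in activin cells, and 9.81 and 9.75 in control cells, a difference of 0.34 with a trend adjusted p of 0.0413. The calls of Suz12, Rnf2 and Kdm6a were each lost without SB431542 replicate 1 (adjusted p 0.133, 0.505 and 0.232), without SB431542 replicate 2 (0.329, 0.0852 and 0.37) and without 1 control array. That array was control replicate 1 for Suz12 (0.126) and Rnf2 (0.099), and control replicate 2 for Kdm6a (0.118).

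**Figure D2:**
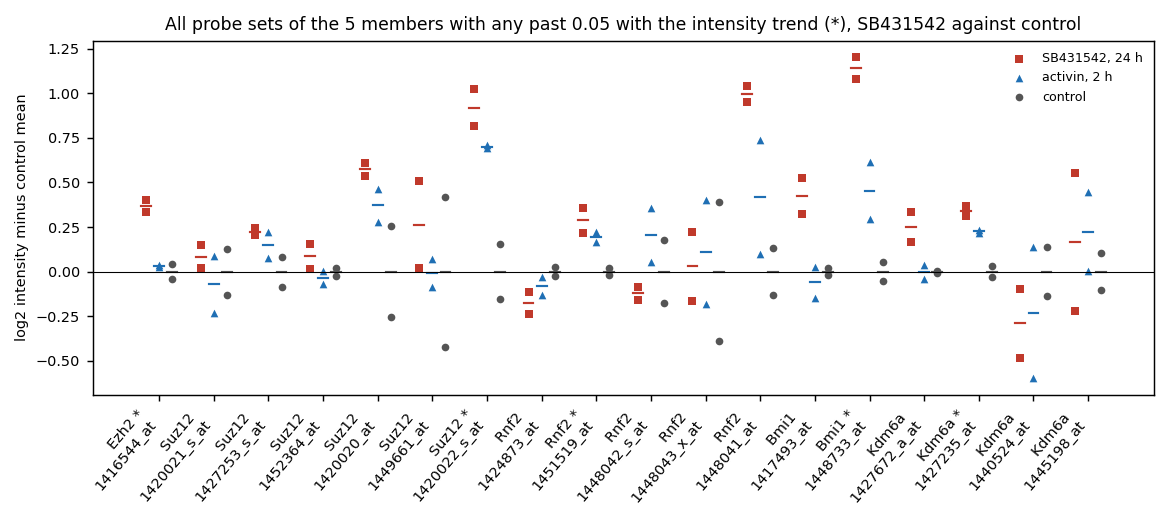
Log2 intensity minus the control mean for all probe sets of the 5 members with a probe set past 0.05 by the intensity trend (asterisk), with SB431542 in squares, activin in triangles and control in circles, 1 point per array and a bar at each group mean. The probe sets of Bmi1 both lie higher in SB431542 cells, while the first 2 probe sets of Rnf2, its brightest, differ in direction.

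The H3K9 methyltransferases and the H3K4 core subunits showed no difference past either setting. Setdb1, which silences retroviral elements with Trim28, had 10.10 and 10.09 in SB431542 cells, 10.05 and 9.97 in activin cells, and 9.93 and 9.94 in control cells. The 4 treated arrays lay above both control arrays, by 0.16 on average in SB431542 cells with a limma adjusted p of 0.609. The 1 other Setdb1 probe set above background had the opposite sign in SB431542 minus control. Ehmt1 and Ehmt2, the partners GLP and G9a that methylate H3K9 in euchromatin, differed by -0.05 and 0.09, and the heterochromatin enzyme Suv39h2 by 0.07. Wdr5, an adaptor of the H3K4 complexes, differed by 0.06 and Ash2l by 0.03. For both genes the 1 other probe set had the opposite sign.

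Of the 16 demethylases above background 11 had differences above 0 and 5 below in SB431542 minus control, from -0.33 to 0.32. Kdm3b, an H3K9 demethylase, had 9.39 and 9.49 in SB431542 cells, 9.53 and 9.70 in activin cells, and 9.85 and 9.70 in control cells. The SB431542 arrays were the lowest 2 of the 6, and the difference from control of -0.33 ± 0.14 (SE; 95% interval -0.67 to 0.01) had a limma adjusted p of 0.394 by default and 0.0777 with the intensity trend. Kdm1b, an H3K4 demethylase known from the growing oocyte, had 7.55 and 7.50 in SB431542 cells, 7.02 and 7.29 in activin cells, and 7.21 in each control array. Its SB431542 arrays were the highest, with a difference of 0.32 and a limma adjusted p of 0.421 by default and 0.406 with the trend.

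Kdm4a, which acts on H3K9 and H3K36, had 8.06 and 8.16 in SB431542 cells, 8.00 and 8.04 in activin cells, and 7.91 and 7.74 in control cells. Its groups stood in that order without overlap, with a difference of 0.29 between SB431542 and control cells and a limma adjusted p of 0.428. Its other probe set, with a mean of 3.81, lay under the background limit. Kdm6a, the X-linked H3K27 demethylase Utx, had 10.26 and 10.43 in SB431542 cells, 10.05 and 10.13 in activin cells, and 10.09 and 10.10 in control cells by its brightest probe set. The SB431542 arrays were again the highest, and the difference of 0.25 had a limma adjusted p of 0.47 by default and 0.168 with the trend. Kdm1a, the H3K4 demethylase Lsd1, differed by 0.04, and Kdm2b, which brings a form of PRC1 to CpG islands, by -0.17. Kdm5b, an H3K4 demethylase abundant in ES cells, differed by 0.02, and its 1 other probe set above background had the opposite sign.

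Activin for 2 h gave smaller differences still. No member passed by default (0 of 37, against 0 of 45037 probe sets, 0%) or with the intensity trend (0 of 37, against 0.215% of probe sets and 0.148% of genes), and the smallest limma adjusted p of a member was 0.793. At an unadjusted p under 0.05 there was 1 member by either setting, against 6.21% of probe sets by default. The median was 0.00 over the members, with 19 above 0 and 18 below, and -0.01 over all genes. The activin arrays lay above both control arrays in 7 members (18.9%, against 14.9% of genes) and below both in 4 (10.8%, against 15.2%). All 37 confidence intervals of the brightest probe sets lay within 2-fold and 34 within 1.5-fold. This comparison and that of SB431542 share the 2 control arrays.

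Kdm6b, the H3K27 demethylase Jmjd3, had the largest difference after activin by the brightest probe sets. Its log2 intensities were 9.04 and 9.05 in activin cells, 8.66 and 8.75 in SB431542 cells, and 8.69 and 8.74 in control cells. Both activin arrays stood above the other 4, which overlapped. The difference activin minus control was 0.33 ± 0.12 (SE; 95% interval 0.03 to 0.62), with a limma adjusted p of 0.793 by default and 0.475 with the intensity trend. It did not pass over the array as a whole, although its unadjusted p was 0.034. Of its other probe sets, both above background, 1 gave 0.25 and the dimmest -0.23.

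The next members by p after Kdm6b were Kdm2a, Kdm4c, Kdm4a, Ezh1 and Ring1. Kdm2a, an H3K36 demethylase that binds unmethylated CpG islands, had 9.09 and 9.06 in activin cells, 8.89 and 8.95 in SB431542 cells, and 8.72 and 8.94 in control cells. The activin arrays were the highest by a difference of 0.24 from control with a limma adjusted p of 0.835. Of its 7 probe sets 5 had a mean under the background limit, and the 1 other above it gave -0.06. Kdm4c, a relative of Kdm4a, had 8.55 and 8.59 in activin cells, 8.54 and 8.52 in SB431542 cells, and 8.50 and 8.21 in control cells. Here control replicate 2 stood apart from the other 5 arrays, and the difference of 0.21 had a limma adjusted p of 0.861. Kdm4a differed from control by 0.19, Ring1 by 0.25 and Ezh1 by -0.18, each with a limma adjusted p of 0.862 or above. The 1 other Ezh1 probe set above background gave 0.22. Ezh2 differed by 0.03 and Bmi1 by -0.06 by its brightest probe set. The dimmer Bmi1 probe set gave 0.45, with a limma adjusted p of 0.793 by default and 0.775 with the trend.

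Between the treatments, which share no arrays, 0 of 37 members passed by default (against 0.0200% of probe sets), with a smallest limma adjusted p of 0.437. With the intensity trend 1 of 37 passed (2.70%, against 2.27% of probe sets, 0.802% higher and 1.47% lower, and 3.37% of genes). It was Ezh2, at -0.34 ± 0.12 (SE; 95% interval -0.63 to -0.04) in activin minus SB431542, with a limma adjusted p of 0.504 by default and 0.0146 with the trend. This call was lost without either SB431542 array (adjusted p 0.345 without replicate 1 and 0.111 without replicate 2) and without either activin array (0.0742 and 0.0695). Unadjusted p-values under 0.05 were found for 4 members (Bmi1, Kdm6b, Ezh2 and Kdm1b), against 9.04% of all probe sets.

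The PRC2 core genes had differences below 0 in activin minus SB431542 in 4 of 4 cases, from -0.34 to -0.10 with a median of -0.17, beside a median of -0.05 over the members and 0.00 over all genes. The activin arrays lay below both SB431542 arrays in 14 members (37.8%, against 22.8% of genes) and above both in 7 (18.9%, against 19.7%). Bmi1 was at -0.48 ± 0.14 (SE) with a limma adjusted p of 0.437 by default and 0.0647 with the trend. Kdm1b was at -0.37 (0.537 by default, 0.45 with the trend), Kdm6a at -0.25 (0.637 and 0.265) and Ezh1 at -0.19 (0.703 and 0.764). In the other direction, Kdm6b was at 0.34 (0.504 and 0.191). All 37 confidence intervals of the brightest probe sets lay within 2-fold and 31 within 1.5-fold.

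**Figure D3:**
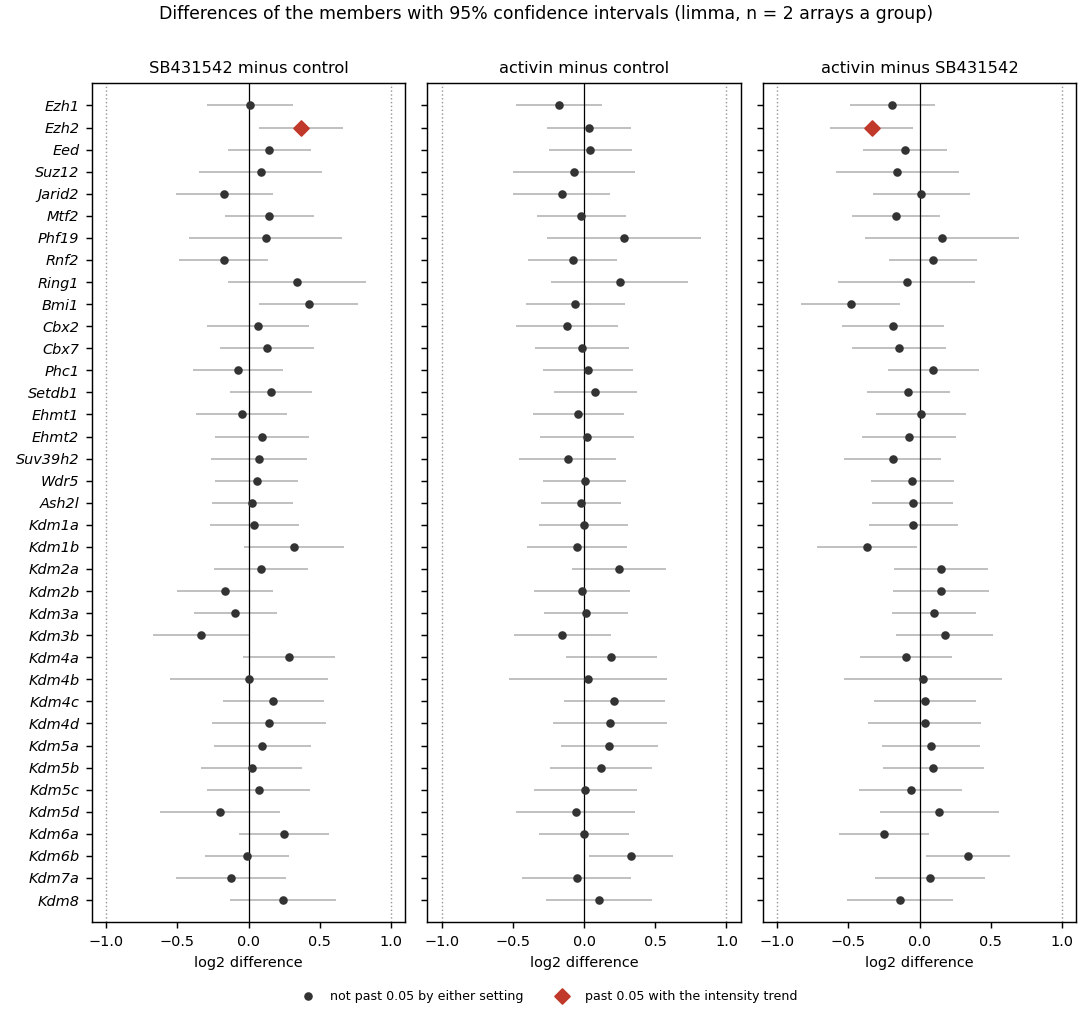
Log2 differences of the brightest probe sets of the 37 members with their 95% confidence intervals (limma at default settings, 2 arrays a group) in SB431542 minus control, activin minus control and activin minus SB431542. Dotted lines mark 2-fold in either direction. Every interval stays inside the dotted lines, and Ezh2 (diamonds) is the member past 0.05 with the intensity trend, in both panels that involve SB431542.

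Partners of these enzymes from 8 further lists, 93 of 98 genes measured, gave calls with the intensity trend in the comparisons that involve SB431542. None passed by default in any comparison, where the smallest limma adjusted p was 0.208 for SB431542 against control, 0.807 for activin against control and 0.3 for activin against SB431542. Unadjusted default p-values under 0.05 were found for 10 (10.8%, against 13.0% of all probe sets), 0 (against 6.21%) and 8 (8.60%, against 9.04%) of the 93. With the trend 10 partners were higher and 2 lower in SB431542 than in control cells (12.9%, against 6.48% of genes), 0 differed between activin and control (against 0.148%), and 3 were lower in activin than in SB431542 cells (3.23%, against 3.37%). The medians over the 93 were 0.05, -0.01 and -0.03. On each of the 8 lists 0 genes had a mean at or under the highest bacterial value, while all genes include dim ones. The part of brightness in the share of 12.9% was not tested.

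Calls fell on 5 of the 8 lists in SB431542 against control, and none fell on the PRC2 partners (0 of 8), the H2A deubiquitinase (0 of 8) or the other JmjC proteins (0 of 8). Of 21 PRC1 partners 2 were higher and 1 lower. Bcor, a corepressor that defines a form of PRC1 together with Kdm2b, had 9.85 and 9.69 in SB431542 cells, 8.67 and 9.16 in activin cells, and 8.81 and 8.71 in control cells. Its SB431542 arrays stood clear of the other 4, with a difference from control of 1.01 ± 0.19 (SE), a 2.01-fold higher level. The limma adjusted p was 0.208 by default and 1.98e-06 with the trend, and 3.54e-08 to 1.96e-04 with each array left out in turn. Its other probe sets gave 0.59 and 0.40. Pcgf5, a PRC1 subunit that takes the place of Bmi1 in another form of the complex, had 10.38 and 10.45 in SB431542 cells, 9.75 and 9.64 in activin cells, and 10.11 and 9.78 in control cells. Its difference of 0.47 had a limma adjusted p of 0.331 by default and 0.00497 with the trend, which became 0.124 without control replicate 2 and 0.0842 without SB431542 replicate 2. Usp7, a deubiquitinase found with PRC1, was at -0.31 by its brightest probe set (trend adjusted p 0.0075), while its next 2 probe sets gave 0.09 and 0.02, so its direction is not settled.

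Elsewhere, of 14 H3K9 partners 3 were higher with the trend, by their brightest probe sets, namely the heterochromatin protein Cbx1 (0.41), Zfp644 (0.36), which binds G9a and GLP, and Mphosph8 (0.33), a reader of methylated H3K9. Of 17 genes of the H3K4 complexes 3 were higher, namely Pagr1a (0.52), Men1 (0.41) and the methyltransferase Setd1b (0.39). The H4K20 methyltransferase Kmt5a was higher (0.44), 1 of 8 on its list. Its next probe set gave 0.40. Among 9 arginine methyltransferases Prmt2 was higher (0.53) and Prmt1, the main enzyme of that family, lower (-0.32). Trend adjusted p-values of these 9 genes lay between 0.00239 and 0.0463. Probe sets above background disagreed in sign for 6 of them. Of the other Cbx1 probe sets above background 2 had the same sign and 2 the opposite. The second gave -0.15 and the third 0.62 (trend adjusted p 0.00452). For Zfp644 2 had the same sign and 1 the opposite. Its second gave -0.13, and a dim one near background gave 1.43 (trend adjusted p 0.0326). The second probe set of Mphosph8 gave 0.19 and a dimmer one -0.15. The dimmest of Pagr1a gave -0.45 beside 0.09 for its second, those of Men1 gave -0.03 and -0.05, and that of Setd1b gave -0.03. The direction of these 6 RNAs is therefore not settled either. Of the 12 calls in this comparison 3 were still made without SB431542 replicate 1, 4 without SB431542 replicate 2, 6 without control replicate 1 and 6 without control replicate 2, and Bcor was the 1 gene called with each array left out in turn.

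Between the treatments, Bcor (-0.85), Pcgf5 (-0.72) and Prmt2 (-0.70) were lower in activin than in SB431542 cells with the trend, at adjusted p-values of 5.63e-05, 2.87e-05 and 0.00086. By default these were 0.35, 0.337 and 0.3. All 3 calls were also made with each array left out in turn under the trend.

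**Figure D4:**
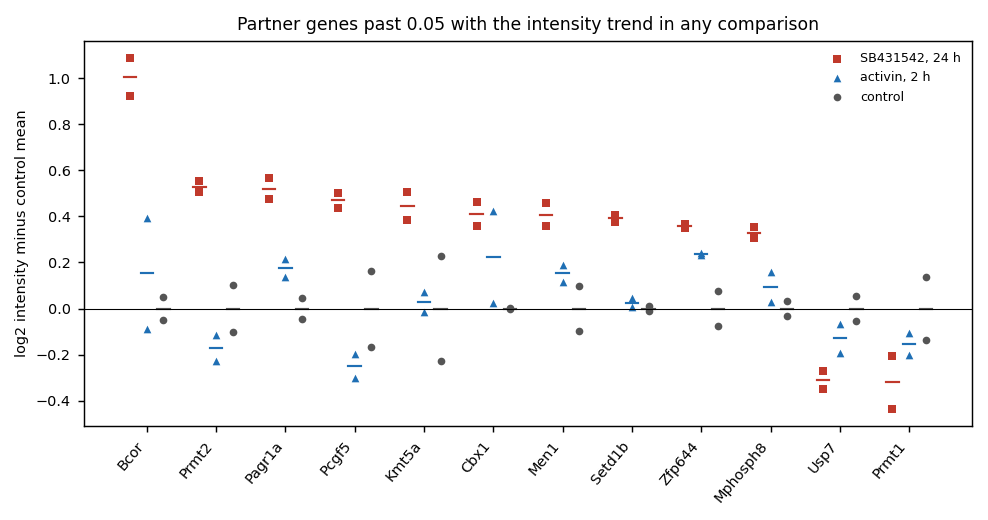
Log2 intensity minus the control mean of the 12 partner genes past 0.05 with the intensity trend, with SB431542 in squares, activin in triangles and control in circles, 1 point per array and a bar at each group mean. Bcor shows the widest separation, with both SB431542 arrays above the other 4, and in Usp7 and Prmt1 the SB431542 arrays lie below the control arrays.

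The listed developmental genes known as Polycomb targets in ES cells stayed dim. The list does not hold every developmental gene, and Gata3 and Hand1 are given with the trophectoderm markers below. Of 30 listed, 29 were measured and 16 had a mean at or under the highest bacterial value, with the highest mean at 7.43. None passed by default in any comparison. With the intensity trend 2 of 29 were higher and 1 lower in SB431542 than in control cells, with a list median of -0.08. Over all genes 6.48% were called in either direction. The eye and neural factor Pax6 had 7.94 and 7.64 in SB431542 cells, 7.58 and 7.32 in activin cells, and 7.09 and 7.02 in control cells, a difference from control of 0.74 with a trend adjusted p of 0.00825. The treated groups both lay above control, and the call was lost without SB431542 replicate 1 (0.295). The homeobox genes Irx3 and Evx1 were at 1.09 and -0.87 (trend adjusted p 0.0127 and 0.00483). Irx3 was lost without SB431542 replicate 1 (0.0916), SB431542 replicate 2 (0.154) or control replicate 2 (0.195), and Evx1 without control replicate 1 (0.0986). In activin against control 0 of 29 passed with the trend (against 0.148% of genes), at a list median of 0.05. The share of all genes called in activin against SB431542 was 3.37%. In activin against SB431542 Evx1 was higher and Irx3 lower, at a list median of 0.15, and neither call was made without SB431542 replicate 1 or replicate 2.

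Markers of other states moved with the SB431542 comparison, and their part in the differences above was not tested. The summed intensity of 10 ES cell markers was 45401 to 45841 in SB431542 cells, 50481 to 51598 in activin cells and 50916 to 51784 in control cells. With the trend 1 of them was higher and 5 lower in SB431542 than in control cells, against 6.48% of genes called in either direction. Klf4 was at 0.50, Pou5f1 at -0.43, Tfcp2l1 at -0.42, Utf1 at -0.33, Dppa5a at -0.28 and Nanog at -0.24, with trend adjusted p-values between 0.000151 and 0.0408. A second Klf4 probe set, with a mean of 9.03, gave 0.02. The 6 trophectoderm markers summed to 14369 to 14520 in SB431542 cells, 8939 to 9457 in activin cells and 9639 to 11595 in control cells. That sum is mostly Krt8 and Krt18, with mean log2 levels of 12.45 and 12.30. With the trend 4 of 6 were higher in SB431542 than in control cells, against the same 6.48% of genes called in either direction. They were Gata3 (1.29, mean level 5.71), Hand1 (1.09, mean level 8.08), Krt18 (0.455) and Krt8 (0.427). Elf5 differed by -0.43, and 1 of the 6 had a mean at or under the highest bacterial value. Cdx2, a defining gene of that lineage, differed by -0.11. Of the 6 ES cell marker calls 3 were still made without SB431542 replicate 1, 3 without SB431542 replicate 2 and 5 without control replicate 1, and of the 4 trophectoderm calls Gata3 was lost without either SB431542 array or control replicate 2. Fibroblast markers summed to 238 to 241 in SB431542 cells, 358 to 407 in activin cells and 302 to 332 in control cells, and 1 of 6 was lower with the trend (Col1a1, at -0.98). Extraembryonic endoderm markers summed to 210 to 228 in SB431542 cells, 206 to 319 in activin cells and 210 to 270 in control cells with 0 of 6 called, and neuroectoderm markers to 605 to 677, 629 to 744 and 635 to 681 in the same order of groups with 1 of 5 called (Pax6). Of 9 cell cycle genes 0 were higher and 1 lower with the trend (Ccne1, at -0.30), with sums of 40870 to 41344 in SB431542 cells, 39820 to 42064 in activin cells and 39728 to 41579 in control cells. A second Ccne1 probe set, with a mean of 10.28, gave -0.04. In bulk RNA, fewer cells of a type and less RNA per cell cannot be told apart.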

How the data were processed

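Single-colour Affymetrix mouse arrays measured RNA in 6 samples, 2 in each of 3 groups taken from the sample titles. The inhibitor is spelled SB432542 in some labels and SB431542 in others; the second spelling was kept. The design text names the A version of the array, while the 45101 probe sets are those of the larger version. The deposited intensity values are linear whole numbers between 6 and 26405, made with RMA (background correction, quantile normalization and probe summary), per the submitters' processing notes; the software is not given in the sources used here. The deposited columns nevertheless do not share 1 distribution, with medians from 37 in control replicate 2 to 49 in activin replicate 2. The reason was not tested. The log2 of each deposited intensity was taken with no further normalization. The 64 control probe sets were left out, 45037 were tested, and 34945 had 1 gene symbol. All 6 arrays were fitted in limma 3.58.1 (R 4.3.3), lmFit and eBayes at default settings, with Benjamini-Hochberg adjustment over 45037 probe sets and a threshold of 0.05. The fit had 3 residual degrees of freedom, to which the prior added 2.51, or 34.3 with the intensity trend (trend and robust estimation). The code was checked on simulated data for the direction of large differences only. That check does not measure the power for differences as small as those of the members. The small number of arrays limits the precision. Alternatives were another normalization or scaling, a filter on dim probe sets, averaged probe sets, each array left out, and the replicate number as a block.

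The members and gene lists were chosen with earlier results of these data known, so no pattern in them is independent support. Values on every array are given for members past the threshold by either setting, the 6 members with the smallest p in each comparison, and Ezh1 and Ezh2. Setdb1, Ash2l and Pou5f1 and the probe sets other than the brightest were added as illustrations. List genes past the threshold by either setting are named, at most 4 per list by smallest p, except that the ES cell markers are all named, a choice made after their values were seen.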

Additional observations from a re-analysis of the deposited data

How the results depend on the processing

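With default limma, 0 of 37 members passed in all 3 comparisons under each of the alternatives run without the intensity trend, including each array left out in turn and columns shifted to 1 median, where 791, 78 and 412 probe sets passed over the array in SB431542 against control, activin against control and activin against SB431542. With the intensity trend 1 member passed in SB431542 against control and 1 in activin against SB431542 (Ezh2 in both). Leaving out each array under the trend gave 0 to 2 in each of these comparisons (against 2.10% to 5.68% of all probe sets in SB431542 against control and 0.893% to 3.32% in activin against SB431542), with 2 without control replicate 2 in SB431542 against control (Ezh2 and Kdm3b) and 2 without either control array in activin against SB431542 (Bmi1 and Ezh2). With the trend and the dimmest 40% of probe sets left out, an alternative chosen after seeing the data like the trend fits with arrays left out, 3 of 35 passed in SB431542 against control (Bmi1, Ezh2 and Kdm3b, against 9.09% of the probe sets kept) and 2 in activin against SB431542 (Bmi1 and Ezh2, against 4.40%). In activin against control no fit called a member. Member medians moved between the refits as follows. In SB431542 against control the median was 0.0157 with repeated quantile normalization, 0.0325 with probe sets averaged, and 0.0383 to 0.105 with each array left out. In activin against control it was -0.061 with columns shifted, 0.033 with probe sets averaged, and -0.020 to 0.054 with each array left out. In activin against SB431542 it was -0.013 with repeated quantile normalization, -0.0875 with columns shifted, 0.0171 with probe sets averaged, and -0.0666 to -0.0043 with each array left out. The sign turned in 9 refits of named members. Ezh1 in SB431542 against control was -0.0544 with repeated quantile normalization, -0.0141 with columns shifted, and -0.0571 (without control replicate 1) to 0.0798 with arrays left out. Kdm4a in that comparison was -0.0698 with probe sets averaged. In activin against control Ezh2 was -0.032 with columns shifted and -0.0092 (without control replicate 2) to 0.0748 with arrays left out, and Kdm2a was -0.156 with probe sets averaged. Averaging brings in probe sets under the background limit, 1 of 2 for Kdm4a and 5 of 7 for Kdm2a, so these 2 turned signs are not evidence on the RNAs. The causes of the others were not tested.

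The replicate numbers share only a number: deviations of same-numbered arrays correlated at -0.09 between SB431542 and activin, 0.02 between SB431542 and control and -0.14 between activin and control. With the number as a replicate block 0 members passed in each comparison, with medians of 0.07, 0.00 and -0.05 in SB431542 against control, activin against control and activin against SB431542, and 0, 0 and 1 probe sets passed over the array. With the numbers of the activin arrays crossed, chosen after seeing the data, 0 members passed and 2, 0 and 3 probe sets.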

Other observations

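The Y-linked demethylase Kdm5d lay at background on every array, with log2 intensities of 3.81 and 3.70 in SB431542 cells, 3.70 and 4.09 in activin cells, and 4.00 and 3.91 in control cells. Uty, the Y-linked relative of Kdm6a, was measured above background, with 8.09 and 7.85 in SB431542 cells, 7.73 and 7.75 in activin cells, and 7.67 and 7.71 in control cells.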
